A study of Homo sapiens with 3 samples.

Results

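HSF1 and the cytosolic heat shock genes DNAJB1, DNAJA1, HSPH1, HSPA4, HSP90AA1, HSP90AB1, HSPB1 and BAG3 were examined in human embryonic kidney cells given BDE-209 (decabromodiphenyl ether, a brominated flame retardant) or its solvent. The 10 RefSeq transcripts of these 9 genes were taken by identifier from the 25443 transcripts with a value in at least 1 sample, and all 10 had a value in every sample. In order to separate the effect of BDE-209 from that of the solvent, the study kept 3 cultures for 48 h. The control was grown in normal medium, the DMSO sample in medium with 1 mM DMSO, and the BDE-209 sample in medium with 1 µM BDE-209 dissolved in DMSO, also at 1 mM. The treatment label of the control calls it normal but also names BDE-209 in medium without DMSO, whereas its protocol and the methods of the study give a medium free of both. The cells are labelled HEK293, an adherent epithelial-like line, and the methods of the study name HEK293T, the derivative that carries the SV40 large T antigen. Each condition had 1 sample, so no difference below has a replicate check, and treatment and culture cannot be told apart. Values are RPKM, that is reads scaled to the length of the transcript and the mapped reads of the library, and no p-values are given. A log2 ratio from DMSO to control is that of DMSO over the control, so a negative value is lower in DMSO. The other pairs follow the same order.

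HSF1 is the transcription factor that switches on heat shock genes when unfolded proteins accumulate in the cytosol. At rest it is held back by chaperones, and after stress it forms trimers that bind heat shock elements, which are inverted repeats of the unit GAA upstream of its target genes. The targets encode chaperones that fold or refold client proteins. HSP90 proteins mature kinases and steroid receptors, HSP70 proteins bind exposed hydrophobic stretches, J-domain proteins hand clients to HSP70, HSP110 proteins exchange its nucleotide, small heat shock proteins hold clients, and BAG3 links HSP70 to autophagy. DNAJB1, HSPH1, HSPB1 and BAG3 are strongly heat-inducible, whereas HSP90AB1 is largely constitutive.

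Heat shock elements were searched in the 250 bases before each transcription start, because they are the sites that HSF1 is known to bind. RefSeq promoters (GRCh38.p14) were given for 8 of the 9 genes at 13 start sites. HSF1 was not matched. An element of 2 adjoining units, GAANNTTC or TTCNNGAA, lay before 5 of the 13 start sites, in 5 genes. One such element was found in 11.6% of 34943 promoters of the same length. The longer element of 3 units, GAANNTTCNNGAA or TTCNNGAANNTTC, each of which contains 2 of the shorter ones, lay before 2 start sites, in HSP90AA1 and HSP90AB1. It was found in 0.441% of all promoters. The letters read the same on both strands once both forms are searched. The following stretches show these elements in capitals with 15 bases on either side.
HSP90AA1, chr14:102087090-102087147, minus strand: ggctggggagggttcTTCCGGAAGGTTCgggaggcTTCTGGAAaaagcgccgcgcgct
HSP90AB1, chr6:44247763-44247805, plus strand: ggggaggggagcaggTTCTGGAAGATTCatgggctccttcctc
HSP90AB1, chr6:44247816-44247858, plus strand: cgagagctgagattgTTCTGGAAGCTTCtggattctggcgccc
DNAJA1, chr9:33025060-33025097, plus strand: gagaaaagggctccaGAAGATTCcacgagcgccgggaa
HSPB1, chr7:76302476-76302513, plus strand: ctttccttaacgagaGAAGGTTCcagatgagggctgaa

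Both sequences below are the 250 bases before a start site of DNAJB1 and BAG3, the members with the largest differences between samples. DNAJB1 held 2 separate elements of 2 units, 47 to 40 and 77 to 70 bases before the start, in capitals. No element in these letters was found in the 250 bases of BAG3, HSPH1 and HSPA4, or before the other start sites of DNAJB1, HSP90AA1 and HSP90AB1. A match is a description of the letters and not a measured binding site. Start sites were taken by gene and were not paired with the measured transcripts.
DNAJB1, chr19:14518398-14518647, minus strand: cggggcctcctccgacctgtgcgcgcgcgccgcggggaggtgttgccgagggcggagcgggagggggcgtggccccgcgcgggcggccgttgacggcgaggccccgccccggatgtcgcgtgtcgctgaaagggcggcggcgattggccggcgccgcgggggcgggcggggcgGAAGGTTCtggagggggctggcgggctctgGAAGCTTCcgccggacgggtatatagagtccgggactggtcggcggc
BAG3, chr10:119651130-119651379, plus strand: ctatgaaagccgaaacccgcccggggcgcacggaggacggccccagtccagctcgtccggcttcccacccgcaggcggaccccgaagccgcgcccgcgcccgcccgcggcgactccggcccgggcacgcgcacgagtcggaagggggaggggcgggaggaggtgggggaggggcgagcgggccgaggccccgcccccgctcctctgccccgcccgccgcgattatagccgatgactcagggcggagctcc

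The read totals behind the RPKM values, recovered from their steps, were 4843622 for the control, 4782042 for DMSO and 4676791 for BDE-209. They are smaller than the uniquely mapped reads that the study gives, which place BDE-209 above DMSO, and the reason was not tested. Scaling to those reads instead, an alternative added after seeing the data, shifted every log2 ratio by 0.042 from DMSO to control, by -0.039 from BDE-209 to DMSO and by 0.002 from BDE-209 to control. Markers of the line were found in all 3 samples, with VIM between 261 and 299 RPKM, NEFM between 49.9 and 54.1, KRT18 between 40.7 and 48.1, LIN28B between 41.6 and 42.2, INA between 28.1 and 32.6 and KRT8 between 5.93 and 6.38. Of markers of other cells, ALB and PECAM1 stayed under 0.5 RPKM and COL1A1 lay between 4.44 and 5.19. PAX2, PTPRC and INS were not analysed here. In bulk RNA, fewer cells with a transcript and less of it in each cell cannot be told apart. Read counts were recovered as lower bounds, and the 95% intervals below come from these counts, as exact Poisson intervals for levels and Clopper-Pearson intervals for ratios. They cover counting error only, and counts that are too low make them too wide.

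The member transcripts spanned a wide range of levels. In the control, the order by RPKM was HSP90AA1 (NM_005348), HSP90AB1, HSP90AA1 (NM_001017963), DNAJA1, HSPA4, HSPH1, DNAJB1, HSPB1, HSF1 and BAG3. HSP90AB1 and NM_001017963 had overlapping 95% intervals in the control, from 904 to 937 and from 906 to 933 RPKM. DNAJB1 and HSPB1 also overlapped there, from 55.8 to 65.2 and from 52.7 to 67.3 RPKM, and HSPB1 was above DNAJB1 in the other samples. Taken with 1 transcript for each gene, the 9 genes summed to 2669 RPKM in the control, 2506 in DMSO and 2501 in BDE-209. This was 0.5%, 0.473% and 0.476% of all RPKM.

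**Figure D1:**
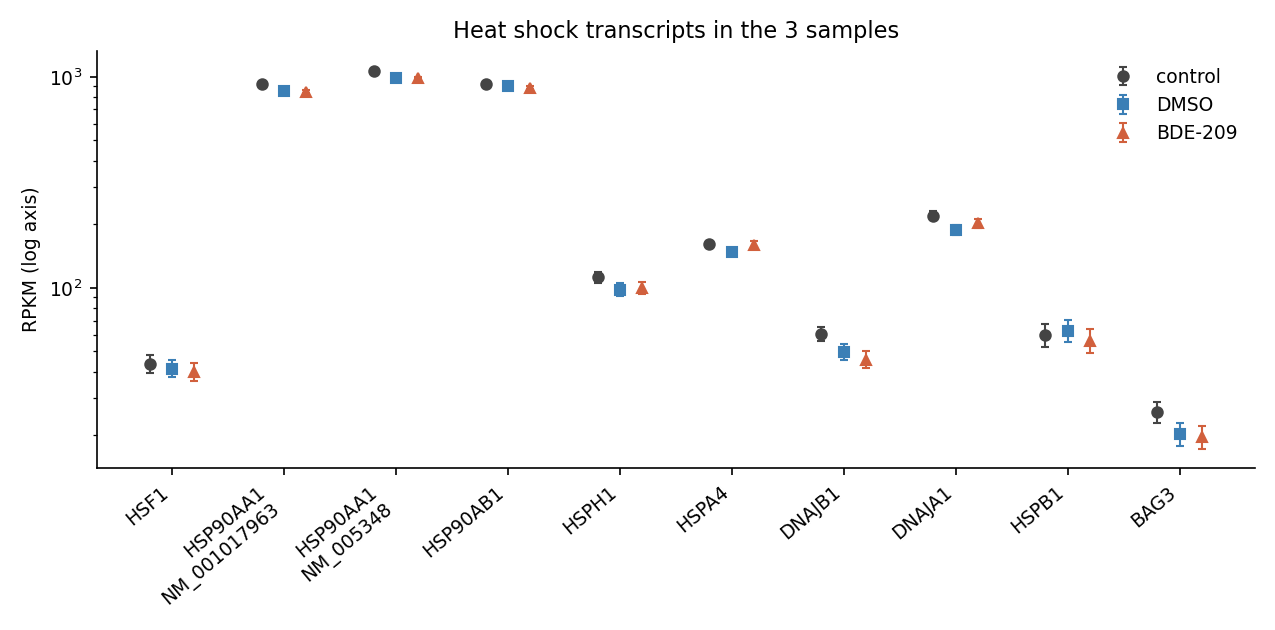
RPKM of the 10 heat shock transcripts on a log axis in the control (circles), DMSO (squares) and BDE-209 (triangles) samples, with 1 sample for each condition. Bars are exact 95% Poisson intervals of the recovered read counts and cover counting error only. The control symbol is the highest for every transcript except HSPB1, against 34.8% of the 8060 transcripts with a mean of at least 10 RPKM.

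The first comparison, DMSO against the control, addresses the effect of the solvent. HSPB1 was higher and the other 9 transcripts, from 8 genes, were lower in DMSO. Of all 8060 transcripts with a mean of at least 10 RPKM over the samples, which include the 10 members, 48.5% were lower in DMSO. The median log2 ratio of the members was -0.113, against 0.005 over all these transcripts. BAG3 and DNAJB1 were lower by 1.2-fold or more, a threshold chosen here, as were 3.68% of all transcripts. No member was higher by 1.2-fold, against 3.95% of all. No member reached the 2-fold threshold of the study in either direction, a size reached by 0.0868% of all transcripts. With the uniquely mapped reads of the study as the scale, 8 members and 35.5% of all transcripts were lower, and the medians were -0.071 and 0.046. BAG3 alone of the members was then lower by 1.2-fold, against 2.61% of all transcripts, with DNAJB1 at -0.24.

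For 7 of the 10 transcripts, from 6 genes, the counting interval lay below 0 in DMSO against the control, as it did for 5.15% of all transcripts. No member had an interval above 0, against 6.5% of all. The interval depends on reads, and most members have more than the typical transcript. Among the 795 transcripts with a mean of at least 100 RPKM, which hold 6 of the members, the interval lay below 0 for 11.8% and above 0 for 11.8%. That filter was chosen after seeing the data.

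The second comparison, BDE-209 against DMSO, holds the solvent constant and so addresses BDE-209 itself. The SD of the log2 ratio over all transcripts was 0.138, against 0.167 in the first comparison. The median log2 ratio of the members was -0.017, against -0.005 over all transcripts. Of the 10 members 7, from 6 genes, were lower in BDE-209, against 51.7% of all transcripts. Both HSP90AA1 transcripts are among them but lay so near 0 that scaling to the same RPKM total made them higher (0.01 and 0.012). No member was lower by 1.2-fold, against 3.24% of all, and none was higher by this size, against 2.47%. A 2-fold difference was found for no member and 0.062% of all transcripts. HSPA4 and DNAJA1 were higher in BDE-209 with an interval above 0, as were 3.56% of all transcripts and 4.53% of those with a mean of at least 100 RPKM. No interval of a member lay below 0, against 3.77% of all and 10.1% of those with a mean of at least 100 RPKM. With the uniquely mapped reads of the study as the scale, 8 members and 65.7% of all transcripts were lower, and the medians were -0.057 and -0.044. No member then had an interval above 0, and 3 had one below 0, namely both HSP90AA1 transcripts and HSP90AB1. The share of all transcripts with such an interval was not taken on this scale.

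The comparison of BDE-209 with the control addresses both compounds together. It shares the control with the first comparison and the BDE-209 sample with the second, so that it is not independent of either. All 10 transcripts were lower in BDE-209, against 49.8% of all transcripts, with a median log2 ratio of -0.114 against 0.001 over all. HSPA4 lay nearest to 0 (-0.011) and was higher (0.014) with scaling to the same RPKM total. DNAJB1 and BAG3 were again lower by 1.2-fold or more, against 4.47% of all. No member was higher by 1.2-fold, against 3.93%, and none differed by 2-fold, against 0.062%. The interval lay below 0 for 7 members from 6 genes, against 5.99% of all transcripts and 17.5% of those with a mean of at least 100 RPKM. It lay above 0 for no member and for 6.45% of all.

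**Figure D2:**
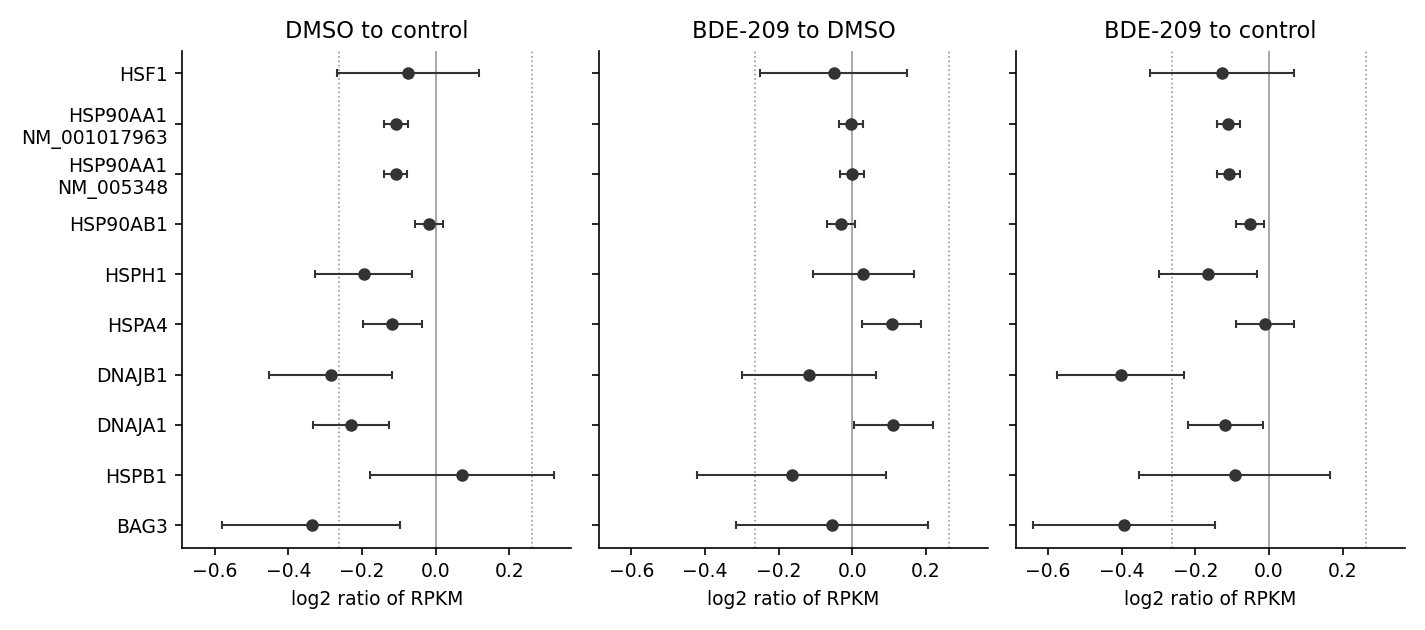
Log2 ratio of RPKM for each heat shock transcript in the 3 comparisons, with 95% Clopper-Pearson intervals of the recovered reads (counting error only, 1 sample for each condition). The solid line marks no difference and the dotted lines 1.2-fold; DNAJB1 and BAG3 lie beyond the dotted line in both comparisons with the control and no transcript does between BDE-209 and DMSO.

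HSF1 (NM_005526), the factor itself, lies on chromosome 8 of GRCh37 from 145515273 to 145538383 on the plus strand. Its transcript had 43.7 RPKM in the control, 41.4 in DMSO and 39.98 in BDE-209. The control was the highest and BDE-209 the lowest sample, and their counting intervals overlapped. From DMSO to control the log2 ratio was -0.08 (interval -0.27 to 0.12). From BDE-209 to DMSO it was -0.05 (-0.25 to 0.15), and from BDE-209 to control -0.13 (-0.32 to 0.07). A difference in HSF1 was not detectable at this depth, where at least 405 reads lay behind each value. Of the other factors, HSF2 had 35.6, 33.7 and 38.4 RPKM in the same order, and HSBP1, a small protein that binds HSF1 trimers, had 86.9, 88.5 and 79.7.

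DNAJB1 and DNAJA1 encode the main cytosolic J-domain partners of HSP70. DNAJB1 (NM_006145; chromosome 19, 14625581 to 14671203, minus strand) had 60.4 RPKM in the control, 49.5 in DMSO and 45.7 in BDE-209. It had the widest range of the 10 transcripts, 0.40 on the log2 scale, and the interval of the control did not overlap those of the other samples. It was 1.22-fold higher in the control than in DMSO (log2 ratio -0.29, interval -0.45 to -0.12) and 1.32-fold higher than in BDE-209 (-0.40, interval -0.58 to -0.23). Among all transcripts with a mean of at least 10 RPKM, 3.06% and 1.19% had lower ratios in these comparisons. From BDE-209 to DMSO the log2 ratio was -0.12 (-0.30 to 0.06), within counting error.

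DNAJA1 (NM_001539; chromosome 9, 33025271 to 33039905, plus strand) differed from DNAJB1 in its order of samples. Its level was 219.9 RPKM in the control, 187.5 in DMSO and 202.6 in BDE-209, so that DMSO was the lowest sample and BDE-209 lay between. The log2 ratio was -0.23 from DMSO to control (interval -0.33 to -0.13), 0.11 from BDE-209 to DMSO (0.004 to 0.22) and -0.12 from BDE-209 to control (-0.22 to -0.02). With these intervals the difference between BDE-209 and DMSO only just exceeded counting error, and it did not with the uniquely mapped reads of the study as the scale (0.07).

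BAG3 (NM_004281; chromosome 10, 121410892 to 121437331, plus strand), the co-chaperone that couples HSP70 to autophagy, was the lowest of the 10 transcripts. It had 25.7 RPKM in the control, 20.4 in DMSO and 19.6 in BDE-209, from at least 325, 254 and 239 reads. The control was the high sample and the others lay close together. BAG3 was 1.26-fold higher in the control than in DMSO (log2 ratio -0.34, interval -0.58 to -0.10) and 1.31-fold higher than in BDE-209 (-0.39, interval -0.64 to -0.15). Of all transcripts, 1.79% and 1.32% had lower ratios. Between BDE-209 and DMSO the log2 ratio was -0.06 (-0.32 to 0.21).

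HSPH1 and HSPA4 are HSP110 proteins, which act as nucleotide exchange factors of HSP70. HSPH1 (NM_006644; chromosome 13, 31709110 to 31736525, minus strand) had 112.2 RPKM in the control, 98.0 in DMSO and 100.1 in BDE-209. Its log2 ratio was -0.20 from DMSO to control (interval -0.33 to -0.06), -0.17 from BDE-209 to control (-0.30 to -0.03) and 0.03 from BDE-209 to DMSO (-0.11 to 0.17). HSPA4 (NM_002154; chromosome 5, 132387705 to 132442141, plus strand) had 160.8, 148.2 and 159.6 RPKM in the same order. For HSPA4 the DMSO sample was the lowest, and the control and BDE-209 lay close together. Its log2 ratio was -0.12 from DMSO to control (-0.20 to -0.04) and 0.11 from BDE-209 to DMSO (0.03 to 0.19), while BDE-209 and the control differed by -0.01 (-0.09 to 0.07). On the scale of the uniquely mapped reads of the study the first was -0.08 and the second 0.07, and both intervals held 0.

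The HSP90 genes were the most abundant members. HSP90AA1 (chromosome 14, 102547079 to 102606036, minus strand) encodes the inducible and HSP90AB1 (chromosome 6, 44213903 to 44221625, plus strand) the constitutive form. The HSP90AA1 transcript NM_005348 had 1067 RPKM in the control, 990.0 in DMSO and 989.1 in BDE-209. The other isoform, NM_001017963, had 919.2, 853.1 and 851.4. Their RPKM stood at a ratio of 0.862 in the control, 0.862 in DMSO and 0.861 in BDE-209, and their recovered reads at 0.995, 0.995 and 0.994. The isoforms share most exons, and the counting of shared reads is not described, so that they are not 2 independent measurements. From DMSO to control the log2 ratio of NM_005348 was -0.11 (interval -0.14 to -0.08), a 1.08-fold higher level in the control, and from BDE-209 to DMSO it was -0.001 (-0.03 to 0.03). On the scale of the uniquely mapped reads of the study these were -0.07 and -0.04, both beyond counting error.

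HSP90AB1 (NM_007355) had 920.3 RPKM in the control, 908.3 in DMSO and 888.5 in BDE-209, the narrowest range of the 10 transcripts (0.05 on the log2 scale). The log2 ratio was -0.02 from DMSO to control (interval -0.06 to 0.02), -0.03 from BDE-209 to DMSO (-0.07 to 0.01) and -0.05 from BDE-209 to control (-0.09 to -0.01). Only the last of these exceeded counting error. On the scale of the uniquely mapped reads of the study the first was 0.02, within counting error, and the second -0.07, beyond it. Both HSP90 genes have processed pseudogenes. The study kept only uniquely mapped reads, so reads that match a pseudogene as well may be missing from these values, which was not tested.

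HSPB1 (NM_001540, chromosome 7, 75931990 to 75933612, plus strand), the small heat shock protein HSP27, was the only member that was not highest in the control. Of all 8060 transcripts with a mean of at least 10 RPKM, 34.8% were highest there. It had 59.6 RPKM in the control, 62.7 in DMSO and 55.9 in BDE-209, and the 3 counting intervals overlapped. The log2 ratio was 0.07 from DMSO to control (interval -0.18 to 0.32), -0.17 from BDE-209 to DMSO (-0.42 to 0.09) and -0.09 from BDE-209 to control (-0.35 to 0.17). No order of the samples can be read from these values.

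**Figure D3:**
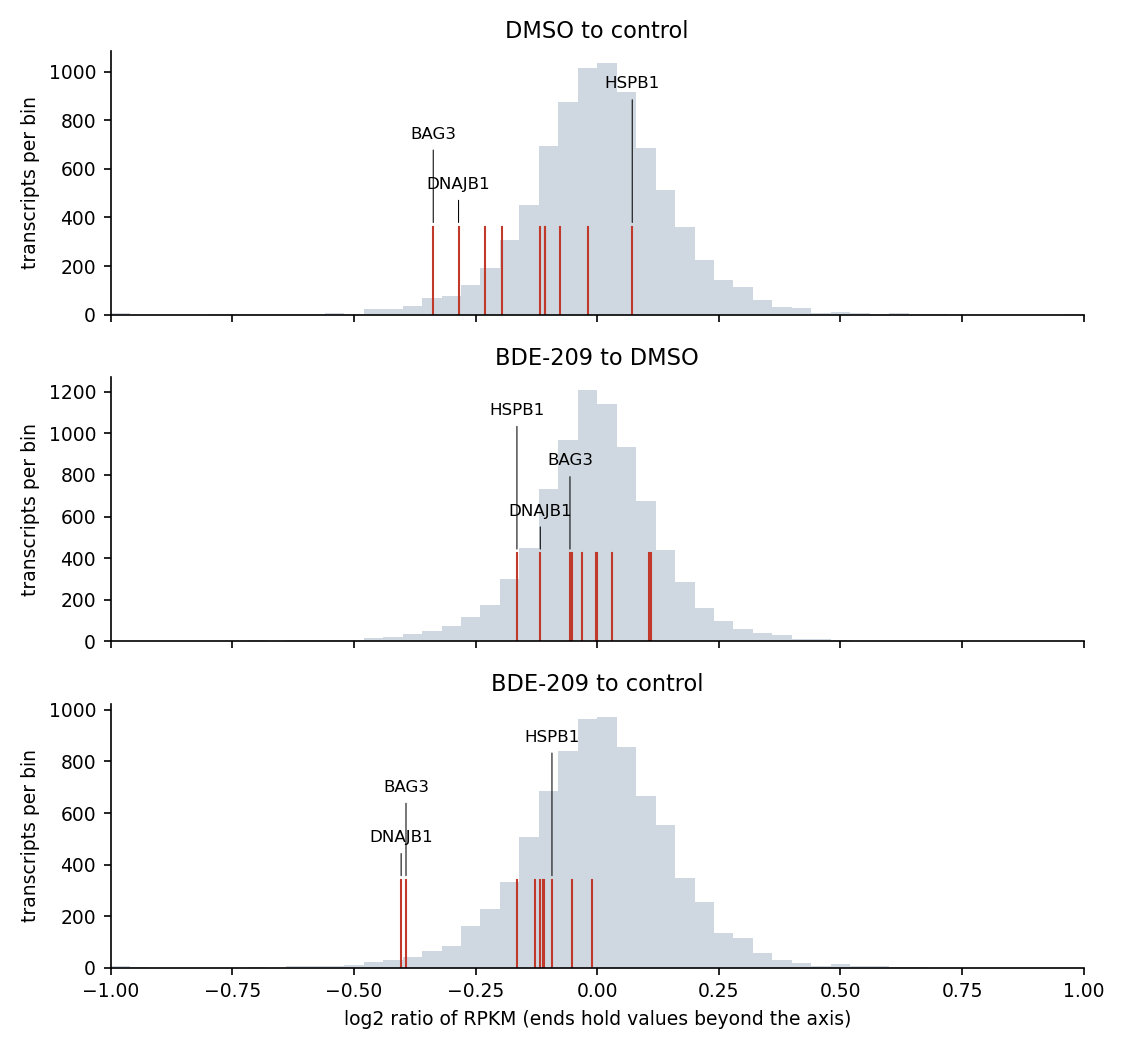
Number of transcripts per bin of 0.04 in log2 ratio among the 8060 with a mean of at least 10 RPKM (bars), for the 3 comparisons, with the 10 heat shock transcripts as vertical lines. DNAJB1 and BAG3 lie in the lower tail in both comparisons with the control, at log2 ratios of -0.29 and -0.34 for DMSO and -0.40 and -0.39 for BDE-209, and within the bulk between BDE-209 and DMSO, at -0.12 and -0.06.

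The other genes of the cytosolic chaperone network were read from lists fixed by symbol. They held 51 genes, of which 46 had a transcript and 31 a mean of at least 10 RPKM. Between DMSO and the control, 23 of these 31 genes were lower in DMSO (74.2%, against 48.5% of all transcripts). Of these, 3 were lower by 1.2-fold or more (9.68%, against 3.68%), and none was higher by this size (against 3.95%). The median log2 ratio was -0.05. Between BDE-209 and DMSO, 12 of the 31 were lower in BDE-209 (38.7%, against 51.7% of all). None was lower or higher by 1.2-fold (against 3.24% and 2.47%), and the median was 0.02. Between BDE-209 and the control, 20 were lower in BDE-209 (64.5%, against 49.8% of all), 3 of them by 1.2-fold or more (9.68%, against 4.47%). None was higher by this size (against 3.93%), and the median was -0.07. These counts by direction were not taken on the scale of the uniquely mapped reads of the study. That scale shifts ratios from DMSO to control by 0.042. Genes below 0 by less, such as PTGES3 (-0.025) and UBB (-0.026), would not be lower in DMSO on it. From BDE-209 to DMSO its shift of -0.039 is larger than the median of 0.02.

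The 3 genes past 1.2-fold were cytosolic HSP70 genes in both comparisons with the control. HSPA1A had 350.5 RPKM in the control, 242 in DMSO and 246 in BDE-209, HSPA1B had 431, 295 and 304, and the constitutive HSPA8 had 1314, 1021 and 1005. All 3 were highest in the control, and the other samples lay close together. The log2 ratios from DMSO to control were -0.53 (interval -0.60 to -0.47), -0.55 (-0.61 to -0.48) and -0.36 (-0.40 to -0.33). From BDE-209 to DMSO they were 0.03, 0.04 and -0.02. HSPA1A and HSPA1B are nearly identical copies. Because the study kept only uniquely mapped reads, those that match both copies may be missing from these values, which was not tested. HSPA6, a strictly heat-inducible gene, was listed at 0.155 RPKM in the control and was not listed in the other samples. The remaining HSP110 and HSP70 proteins of the list above 10 RPKM, HSPA4L and HSPA14, had log2 ratios of -0.19 (interval -0.40 to 0.03) and -0.10 (-0.33 to 0.13).

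Among the HSP90 co-chaperones, 9 of 10 genes were lower in DMSO than in the control, beside the 48.5% of all transcripts, with a median log2 ratio of -0.09. For 4 of them the interval lay below 0, as for 5.15% of all transcripts and 11.8% of those with a mean of at least 100 RPKM, and these are named after their values were seen. CHORDC1 had 43.1 RPKM in the control against 37.0 in DMSO (log2 ratio -0.22), STIP1, which joins HSP70 to HSP90, 333 against 299 (-0.16), the immunophilin FKBP4 122 against 111 (-0.14), and CDC37, which brings kinases to HSP90, 142 against 129 (-0.14). UNC45A went the other way, with 29.4 against 32.8 RPKM (0.16, interval -0.01 to 0.34). The uniquely mapped reads of the study as the scale shift these ratios by 0.042. The interval of CDC37, which ended at -0.019, would then hold 0, and those of CHORDC1, STIP1 and FKBP4 would not. Of the other J-domain proteins, 4 of 6 were lower in DMSO (median -0.04), and only for DNAJC2 did the interval lie below 0 (-0.20, interval -0.36 to -0.04). With the same shift the interval of DNAJC2 would also hold 0. Of the other HSP70 co-chaperones, 3 of 6 were lower (median -0.01), and no interval excluded 0. From BDE-209 to DMSO, the interval lay below 0 for 2 of the 31 listed genes, also named after their values were seen, ST13 (-0.07, interval -0.14 to -0.004) and HSBP1 (-0.15, interval -0.30 to -0.005), and above 0 for none. This was close to the share over all transcripts, 3.77%, or 6.64% with a mean of at least 50 RPKM, and is not a result about these genes.

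**Figure D4:**
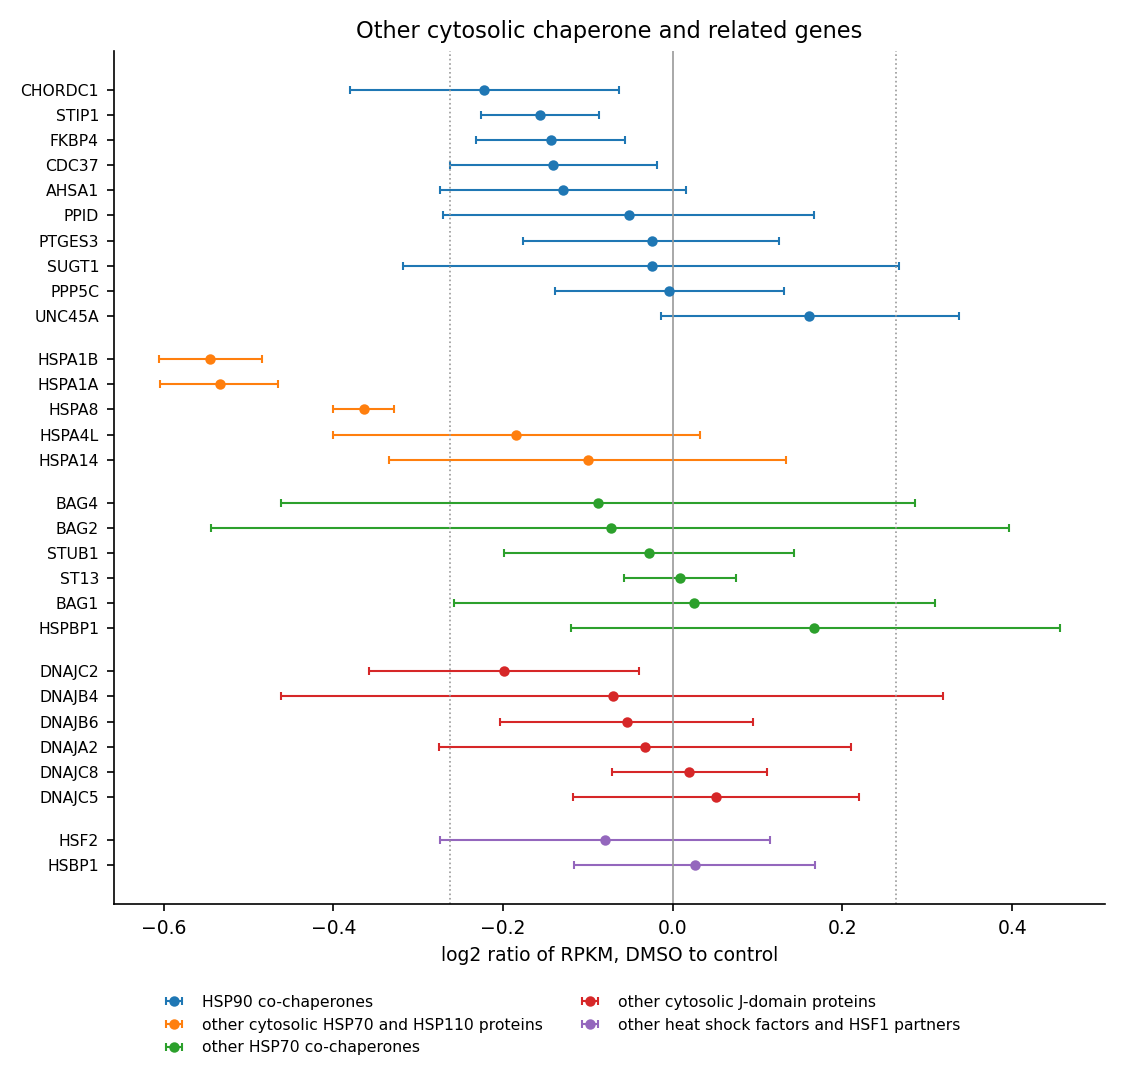
Log2 ratio of RPKM from DMSO to control for 29 of the 31 other cytosolic chaperone and related genes with a mean of at least 10 RPKM, coloured by list, with 95% counting intervals (1 sample for each condition). The solid line marks no difference and the dotted lines 1.2-fold; HSPA1A, HSPA1B and HSPA8 lie beyond the lower dotted line and 22 of the 29 points are below 0.

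Patterns over the 3 samples were also compared by the distance between pairs of log2 ratios, DMSO to control and BDE-209 to control, among protein-coding transcripts with a mean of at least 50 RPKM. Nearest to HSF1 of 1843 candidates were SNX3, SUMO3 and KPNA2, at distances of 0.005, 0.006 and 0.007. As many as 519 candidates lay within 0.1 of HSF1, so its pattern was a common one. Nearest to DNAJB1 were both transcripts of LYAR, a nucleolar protein, at 0.02 and 0.028, and ELOC, a subunit of ubiquitin ligases, at 0.062. LYAR had 97.1 RPKM in the control, 78.7 in DMSO and 73.0 in BDE-209. Within 0.1 of DNAJB1 lay 8 of 1842 candidates. DNAJB1 was taken for its wide range, which places it where candidates are few, so this number is not a separate result. The limit of 0.1 is also smaller than the counting intervals of the ratios of HSF1 and DNAJB1. With 3 samples, likeness of this kind is a description.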

How the data were processed

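RNA of 3 samples of HEK293 cells was sequenced, 1 for each condition, assigned by the first words of the treatment label. The authors used SOAPaligner 2.21 on reads of 49 bases read from 1 end, with hg19 as the genome and up to 2 mismatches, retained reads that mapped uniquely, and deposited RPKM values per RefSeq transcript. How reads shared by isoforms were counted, and whether any shared by gene copies remained, is not given in the sources used here. Transcripts absent from the list of a sample were set to 0.

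The 3 lists were joined, and 24434 of 25443 identifiers (96.0%) were paired with symbols through RefSeq. The totals by which RPKM were divided were recovered as the number, scanned from 3000000 to 8000000 reads, that makes the inverse of low RPKM values whole transcript lengths. The cosine score was 0.509 for the chosen totals and 0.178 for the runner-up. At the totals used, 46.9% of 9053 recovered lengths lay within 5% of the GENCODE length, against 5.18% at totals divided by 2. They differ from the uniquely mapped reads the study gives, which served as an added scaling. Counts are the smallest whole numbers that match, so they are lower bounds. Scripts were tested on simulated data. Log2 ratios have no pseudocount. Python 3.11.15, numpy 2.4.6, pandas 2.3.3 and scipy 1.17.1 were used. Gene positions are from GENCODE on GRCh37, and promoters from RefSeq on GRCh38.p14 were not converted.

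All 10 members are named. Of the lists, the 3 largest differences past 1.2-fold per comparison among genes with a mean of at least 10 RPKM are named, and HSPA1A, HSPA1B and HSPA8 in any case. The 3 nearest transcripts are named for HSF1 and for the member with the widest range. The members and lists were chosen with earlier results of these data known. Alternatives covered pseudocounts, scaling, fold, filters, isoforms and read counts. The values of 1 gene list are not reported here.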

Additional observations from a re-analysis of the deposited data

How the results depend on the processing

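With 1 sample for each condition no replicate could be left out, and counting error is the only error given. Adding 0.5 or 1 RPKM, a median-of-ratios size factor and scaling to the same RPKM total gave 120 further log2 ratios of the members. All of them stayed within the counting interval of the value reported, with a largest move of 0.026. Some ratios near 0 still changed sign with scaling to the same RPKM total. These were both HSP90AA1 transcripts from BDE-209 to DMSO (0.01 and 0.012) and HSPA4 from BDE-209 to control (0.014). Counts of intervals were not taken with that scaling. Counts of members moved with the fold. At 1.1-fold, 4 members were lower in DMSO than in the control, 3 in BDE-209 than in the control and 1 in BDE-209 than in DMSO. At 1.5-fold 0 were lower in either comparison with the control. The shares of all transcripts at these folds were not taken, so these counts have no background beside them. Counting HSP90AA1 once was tried for the 1.2-fold counts alone. Neither of its transcripts passes that size, so those counts could not move. The medians and the counts by direction or interval were not taken again with HSP90AA1 counted once. Read counts from reference lengths and every transcript of the listed genes moved no count by over 1.5 times.

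Scaling to the uniquely mapped reads of the supplement was added after seeing the data. It left 1 member lower by 1.2-fold in DMSO than in the control. From BDE-209 to DMSO it left 0 members with an interval above 0 and 3 with one below 0, both HSP90AA1 transcripts and HSP90AB1. The share of all transcripts with such intervals was not taken on this scale. It also left 1 listed gene, BAG1, lower by 1.2-fold in BDE-209 than in DMSO. Of all transcripts, 2.61% were then lower and 6.4% higher by 1.2-fold in DMSO than in the control, and 4.98% were lower in BDE-209 than in DMSO. HSP90AB1 (DMSO to control 0.02) and HSPH1 (BDE-209 to DMSO -0.009) changed sign, and their intervals on this scale held 0. The ratios of both HSP90AA1 transcripts and of HSP90AB1 left the interval reported above, from DMSO to control and from BDE-209 to DMSO.

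The share of all transcripts past 1.2-fold depended on the filter. For DMSO against the control it was 11.9% higher and 12.5% lower at a mean of at least 1 RPKM, 0.523% and 1.31% at 50 RPKM, and 21.9% and 22.7% without a filter. For BDE-209 against DMSO it was 11.3% in both directions, then 0.314% and 0.68%, then 21.7% in both. For BDE-209 against the control it was 12.2% and 12.5%, then 0.68% and 2.3%, then 22.3% and 23%. Low transcripts have few reads, so depth limits comparisons with them.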

Other observations

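Chaperone genes under a mean of 10 RPKM were left out of the counts. HSF4 had 1.31 RPKM in the control, 0.578 in DMSO and 1.098 in BDE-209, and HSF5 was listed in the BDE-209 sample alone, at 0.0521. The small heat shock protein HSPB8 had 0.502, 1.32 and 0.936, and HSPB6 had 0.709, 0.287 and 0.587. TTC4, an HSP90 co-chaperone, had 2.24, 3.75 and 3.57 RPKM, and DNAJC7 had 5.42, 6.69 and 4.39. Few reads lie behind such values. The counting intervals of the log2 ratio from DMSO to control held 0 for HSF4 (-2.70 to 0.19), HSPB8 (-0.18 to 3.24), HSPB6 (-4.70 to 1.31) and DNAJC7 (-0.23 to 0.85). That of TTC4 just excluded it (0.009 to 1.51), as did that of DNAJC7 from BDE-209 to DMSO (-1.20 to -0.03). DNAJB5 was listed in the BDE-209 sample alone and HSPB3 in the DMSO sample alone. DNAJA4, HSPB2, HSPB7, CRYAA and CRYAB were not analysed here.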
